A study of Mus musculus with 4 samples.

Results

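Leukocytes leave the blood in steps: they roll along the vessel wall, stop, and cross the endothelium. The genes described here encode endothelial surface proteins of these steps and of the contacts between endothelial cells (ECs). Sele and Selp encode the selectins E-selectin and P-selectin, which bind carbohydrates on passing leukocytes and slow them. Icam1, Icam2 and Vcam1 encode immunoglobulin-type ligands that leukocyte integrins hold on to. Pecam1, Cdh5 (VE-cadherin), Cldn5 (claudin-5), Esam and Jam2 encode proteins of the borders between ECs. In liver, most ECs are liver sinusoidal endothelial cells (LSECs), which line capillaries with open pores in which selectins are known to matter less for leukocyte arrest than in other vessels. Inflammatory cytokines raise Icam1, Vcam1 and Sele in many kinds of ECs through the transcription factor NF-kB. The 10 genes were taken by symbol from the 55488 genes in the deposited matrices, and all 10 were found.

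The study asked what happens to the other cells of the liver when the Hippo pathway coactivators YAP and TAZ are lost from its epithelium. Its single-cell libraries came from 4 untreated mice, 1 for each genotype, and each library held freshly isolated hepatocytes (HCs) mixed with non-parenchymal cells (NPCs). In the YAPKO mouse both Yap alleles were floxed, in the TAZKO mouse both Taz alleles (gene Wwtr1), and in the double knock-out (DKO) mouse all of these. All 3 carried Alb-Cre, in which the albumin promoter drives Cre, so recombination takes place in HCs and biliary epithelial cells (BECs), and ECs and other NPCs have unrecombined alleles. The WT mouse was genetically unmodified. The age of these mice is not given in the sources used here.

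Each library was made with the 10x Genomics 3′ chemistry, which counts molecules by unique molecular identifiers (UMIs). Only the 3′ end of a transcript is counted, so UMI numbers do not scale with transcript length, and levels of different genes are set side by side here as UMIs per 1000000 UMIs of the same cells (CPM). The deposited matrices held 13657 barcodes for WT, 7711 for YAPKO, 14418 for TAZKO and 9188 for DKO. Cells had to show between 500 and 6000 genes, with no more than 10% of UMIs from mitochondrial genes, which left 7155, 6275, 8638 and 8294 cells, 30362 of 44974 in all. The median depth of these cells was 4618 UMIs in WT, 7337 in YAPKO, 3555.5 in TAZKO and 5952.5 in DKO. Any pair of libraries had 9 to 26 barcode sequences in common, at most 0.363% of a library. Clusters were named from marker genes, and each name stands for a cell type-like cluster ("EC" for EC-like). The ECs numbered 1967 in WT, 1320 in YAPKO, 1690 in TAZKO and 1251 in DKO, and 1 cluster held most of them in every library. Intervals are exact 95% intervals (Poisson for levels, conditional binomial for ratios, Clopper-Pearson for shares) and cover counting error only. With 1 library for each genotype there are no replicates and no test, so what is compared is always a pair of libraries, not genotypes.

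The targeted genes were measured first. In HCs, Yap1 stood at 21.4 CPM in WT (19.4 to 23.6), 4.76 in YAPKO (3.78 to 5.92), 47.3 in TAZKO (43.7 to 51.1) and 4.51 in DKO (3.8 to 5.32). Its level was thus lower in both libraries labelled as lacking Yap. Wwtr1 in HCs stood at 5.13 CPM in WT (4.16 to 6.26), 13.2 in YAPKO (11.6 to 15.1), 1.32 in TAZKO (0.78 to 2.08) and 2.35 in DKO (1.85 to 2.95), lower in both libraries labelled as lacking Taz. The 121 BECs gave few UMIs, and their Wwtr1 level in TAZKO, 63.4 CPM (38.2 to 99), overlapped the WT level of 68.7 (49.5 to 92.8). In ECs, where the alleles are unrecombined, Wwtr1 was between 153.3 and 176.3 CPM in the 4 libraries, and Yap1 was 39.4 CPM in WT, 40.3 in YAPKO, 58.8 in TAZKO and 41.7 in DKO. Where the counted 3′ ends lie relative to the floxed exons is not given in the sources used here, so RNA from a recombined allele may still be counted.

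Both selectin genes lie side by side on chromosome 1 of the mouse genome (GRCm38, GENCODE release 21). Sele (ENSMUSG00000026582) spans bases 164048234 to 164057677 and Selp (ENSMUSG00000026580) bases 164115264 to 164150026, both on the plus strand, 57587 bases apart. Icam2 (ENSMUSG00000001029, 106377656 to 106388075) and Pecam1 (ENSMUSG00000020717, 106654217 to 106750628) lie 266142 bases apart on the minus strand of chromosome 11. Icam1 (ENSMUSG00000037405) is on chromosome 9 at 21015985 to 21028817, and Vcam1 (ENSMUSG00000027962) on chromosome 3 at 116109949 to 116129688, minus strand. The remaining genes are Cdh5 (ENSMUSG00000031871, chromosome 8, 104101625 to 104144511), Cldn5 (ENSMUSG00000041378, chromosome 16, 18776847 to 18778262), Esam (ENSMUSG00000001946, chromosome 9, 37528078 to 37538319) and Jam2 (ENSMUSG00000053062, chromosome 16, 84774123 to 84825928), all on the plus strand. Promoter sequences from RefSeq (GRCm38.p6), 250 bases before to 50 after the annotated start, were matched for 4 of the 10 genes. Those of Icam1, Sele and Selp are printed because these genes were higher in YAPKO ECs. Vcam1 was higher there as well, but its promoter was not among the 4. The printed sequences are the plus strand at chr9:21015690-21015989, chr1:164047984-164048283 and chr1:164115014-164115313. Capitals mark GGNNNTTCC, read on either strand, a loose form of the NF-kB motif that was chosen after the sequences had been seen.
Icam1 promoter: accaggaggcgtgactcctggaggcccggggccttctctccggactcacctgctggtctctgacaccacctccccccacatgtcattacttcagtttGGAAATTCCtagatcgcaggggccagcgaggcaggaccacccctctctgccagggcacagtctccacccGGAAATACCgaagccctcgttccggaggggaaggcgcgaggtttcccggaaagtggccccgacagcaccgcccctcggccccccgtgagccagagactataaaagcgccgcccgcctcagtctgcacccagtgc
Sele promoter: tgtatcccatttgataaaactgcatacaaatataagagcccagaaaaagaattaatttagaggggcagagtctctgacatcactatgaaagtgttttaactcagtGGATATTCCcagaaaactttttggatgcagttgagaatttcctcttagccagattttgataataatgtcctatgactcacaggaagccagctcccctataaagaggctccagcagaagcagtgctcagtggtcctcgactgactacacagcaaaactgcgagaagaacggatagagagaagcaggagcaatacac
Selp promoter: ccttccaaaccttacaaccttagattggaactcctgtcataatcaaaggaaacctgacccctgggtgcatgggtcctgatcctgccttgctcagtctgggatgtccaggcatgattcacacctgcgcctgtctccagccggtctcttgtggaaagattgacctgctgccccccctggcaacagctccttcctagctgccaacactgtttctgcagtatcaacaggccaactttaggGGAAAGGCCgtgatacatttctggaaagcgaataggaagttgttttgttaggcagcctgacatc
The Icam1 promoter held 2 matches, the Sele promoter 1 at -145 from the start and the Selp promoter 1 at -14, while the Cldn5 promoter held 0. Of all 32851 promoters of this length, 18.5% held at least 1 match. The motif GGAATG or CATTCC of TEAD factors, the DNA-binding partners of YAP and TAZ, found in 14.7% of all promoters, and the NF-kB consensus, found in 8.46%, were in 0 of these 4 windows on either strand. A match describes the letters only.

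**Figure D1:**
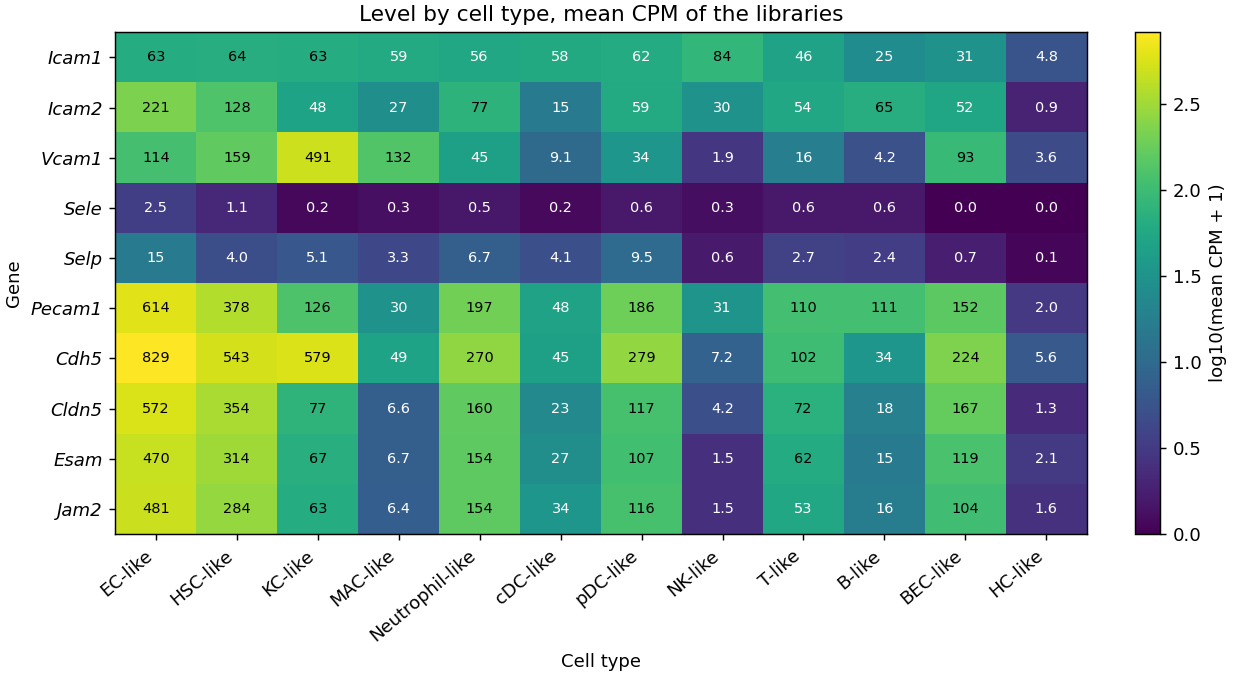
Level of each of the 10 genes (rows) in each cell type (columns), as the mean CPM over libraries, written in each cell and coloured on a log10(CPM + 1) scale. The junction genes, Icam2, Sele and Selp reach their highest mean in ECs, Vcam1 in Kupffer cells (KCs, 491.3 CPM) and Icam1 in NK cells (84.2 CPM).

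Across cell types, the genes formed different patterns, shown in the heat map of levels by cell type. Cldn5, Esam, Jam2, Pecam1 and Icam2 had their highest mean level in ECs and were lowest or near lowest in HCs. Icam1 RNA was found at a similar level in most types, and Vcam1 RNA was highest in Kupffer cells (KCs), the resident macrophages of the sinusoids. Sele and Selp were the least abundant members, with 156 and 1116 UMIs in all cells used.

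Esam, which encodes an endothelial immunoglobulin-type junction protein, averaged 469.5 CPM in ECs (456.4 to 480.8 over the 4 libraries), the narrowest span of the 10 genes relative to its level. Cldn5, a tight junction claudin, averaged 572.5 CPM (463.4 to 693.9), and Jam2, a junctional adhesion molecule, 480.7 CPM (363.2 to 612.2). The share of all their UMIs that came from ECs was 63.8% for Cldn5, 63.7% for Jam2 and 61.5% for Esam. These were the 3 highest shares among the members. Pecam1 (CD31), which also sits on platelets and many leukocytes, averaged 613.7 CPM in ECs (577.1 to 661.2) and 2.03 in HCs, with 110.8 in B cells (96.4 to 136.2) and 110.3 in T cells (88.1 to 128.0). The ranges of B and T cells overlapped. Icam2 averaged 221.2 CPM in ECs (156.7 to 253.2), followed among the named types by hepatic stellate cells (HSCs) with 128.1 (68.8 to 164.3), whose range overlapped, and neutrophils with 77 (47.5 to 95.6). In B cells it averaged 64.8 CPM (59.5 to 70.3). Cdh5, the cadherin of endothelial adherens junctions, averaged 828.7 CPM in ECs (717.4 to 979.2), 579.1 in KCs (465.0 to 830.5), 542.8 in HSCs (502.2 to 629.2) and 5.62 in HCs. The ranges of ECs and KCs overlapped for Cdh5.

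Icam1 showed no such separation. Its mean level was 84.2 CPM in NK cells (61.4 to 111.7), 64.5 in HSCs (50 to 87.3), 63.3 in KCs (56.5 to 69.8), 62.7 in ECs (41.8 to 91.9), 61.5 in plasmacytoid dendritic cells (pDCs, 60 to 64.9) and 59.3 in other macrophages (MACs, 44.6 to 73.1). The ranges of the other 5 types overlapped that of ECs. B cells, at 25.2 CPM (18 to 32.1), and HCs, at 4.76 (3.17 to 5.94), were below the EC range. ECs supplied 24.7% of the 9089 Icam1 UMIs. For Vcam1, KCs averaged 491.3 CPM (244.1 to 643.5), followed among the named types by HSCs at 159.3 (118.3 to 195.2), MACs at 131.9 (37 to 235.2), ECs at 114.1 (73.9 to 177.1) and BECs at 92.6 (39.3 to 198.4). The ranges of HSCs, MACs, ECs and BECs overlapped each other. Of 31981 Vcam1 UMIs, 21797 were in KCs and 12.8% in ECs. NK cells, with 1.92 CPM, were at the low end. Selp averaged 14.7 CPM in ECs (4 to 28.9) and Sele 2.49 (0.2 to 5.85), both with wide spans between libraries.

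Free RNA and cells stuck together can put EC transcripts into other barcodes, so the 13 EC marker genes were summed in each type as a measure of it. Their summed level was 67.7% of the EC level in HSCs, 34.3% in neutrophils, 24.2% in BECs, 22.1% in pDCs, 14.5% in KCs, 12.3% in T cells, 0.355% in HCs and 0.329% in NK cells. Cldn5 followed this measure, at 64.5% of its EC level in HSCs, 29.7% in neutrophils and 13.5% in KCs. Esam reached 68.1%, 35% and 14.7% in the same types. In HSCs, 93.9% of cells had UMIs of at least 3 EC markers and only 15 of 1098 had none, so levels of the endothelial genes in HSCs cannot be told apart from EC RNA. Icam1 and Vcam1 did not follow the measure: in HSCs they stood at 98.5% and 134.7% of the EC level, and in KCs at 97% and 441.0%.

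**Figure D2:**
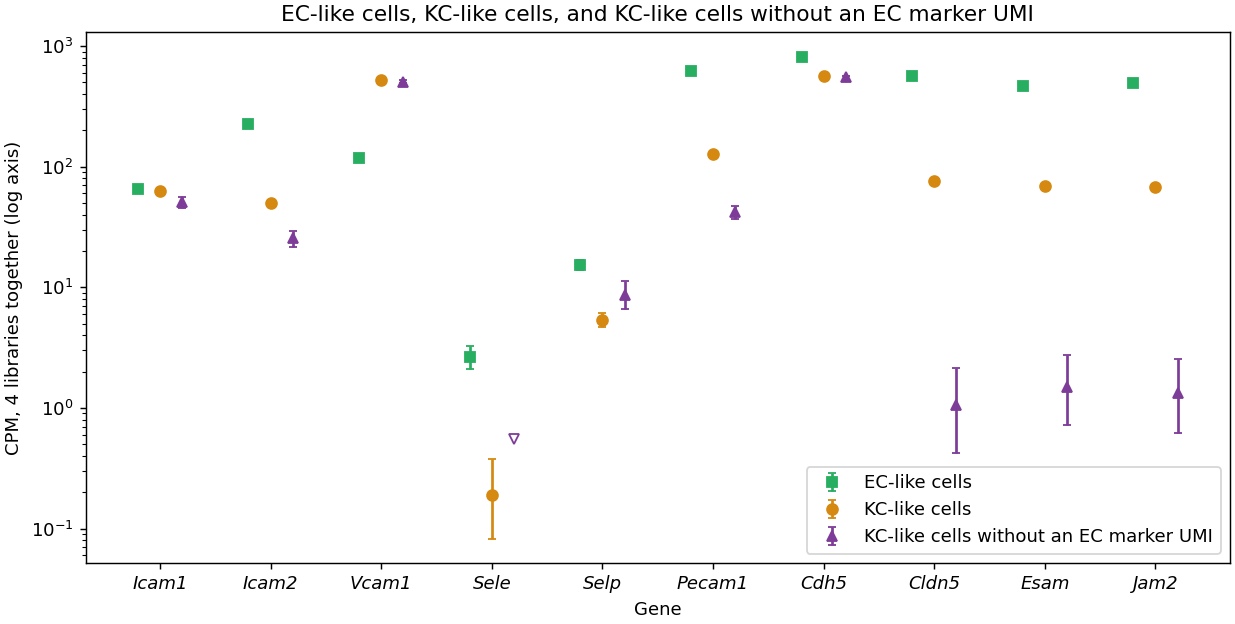
CPM (log axis) of the 10 genes in ECs, in all KCs and in the 1078 KCs without any EC marker UMI, with the 4 libraries pooled and 95% Poisson intervals. Vcam1 and Cdh5 stay near their KC level without EC marker UMIs (506.3 and 549.7 CPM), while Cldn5, Esam and Jam2 drop to between 1.05 and 1.49 CPM, and the open triangle for Sele marks the upper limit of a count of 0.

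KCs were also described without the cells that carry EC marker UMIs, as shown in the plot of KCs with and without them. In the 1078 of 3864 KCs without a single EC marker UMI, Vcam1 stood at 506.3 CPM (489.4 to 523.7) and Cdh5 at 549.7 (532.0 to 567.7). Cldn5 was at 1.05 CPM (0.42 to 2.15), Esam at 1.49 (0.716 to 2.75) and Jam2 at 1.34 (0.615 to 2.55). Choosing cells without EC marker UMIs by itself lowers genes that are counted together with these markers, so the low levels of Cldn5, Esam and Jam2 are a description. Icam1 in these KCs was 50.8 CPM (45.5 to 56.5), Pecam1 41.8 (37.1 to 47), Icam2 25.4 (21.7 to 29.5) and Selp 8.67 (6.58 to 11.2). The 58 Selp UMIs came from 6 WT cells (44 UMIs) and 2 YAPKO cells (14), with 0 in TAZKO and DKO, so this pooled Selp level rests on few cells. Leaving out cells by UMIs picks the shallower ones, and these cells came from TAZKO for 524 of the 1078. Among cells without EC marker UMIs of other types, Pecam1 was at 94.3 CPM (86.1 to 103.2) and Icam2 at 62 (55.3 to 69.2) in B cells, Icam1 at 81 (68.4 to 95.3) in NK cells and Cdh5 at 125.8 (112.8 to 139.8) in pDCs.

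**Figure D3:**
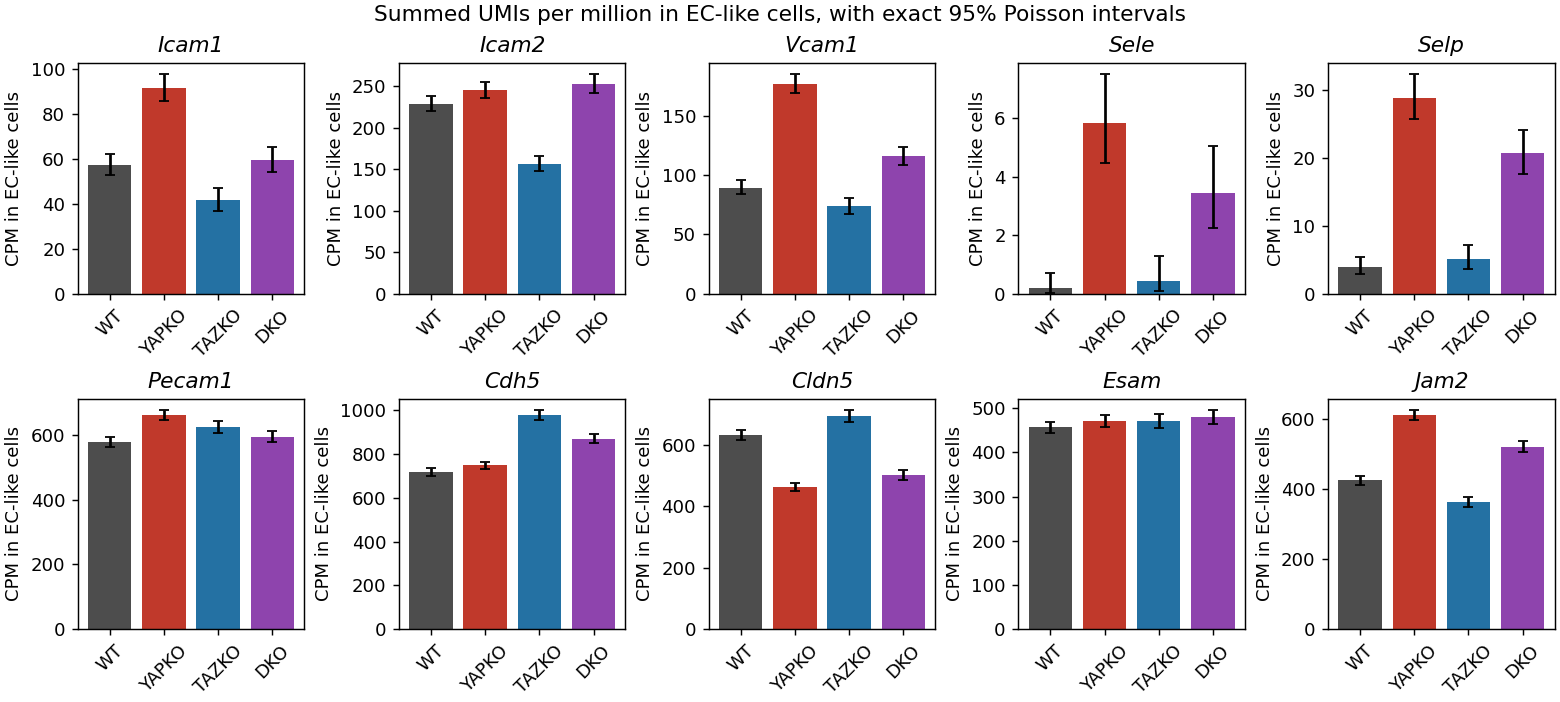
CPM of the 10 genes in ECs, with 1 bar for each library and 95% Poisson intervals. Icam1, Vcam1, Sele and Selp are highest in YAPKO, and Sele and Selp are also above WT in DKO.

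The first comparison asks how the ECs of the YAPKO library, whose own Yap alleles are unrecombined, differ from those of WT. Both selectins and the ligands Icam1 and Vcam1 were higher, and no junction gene passed 1.5-fold. Selp rose from 4 to 28.9 CPM and Vcam1 from 89.6 to 177.1. A gene is counted here when its ratio is past 1.5-fold and both libraries together hold at least 20 UMIs. By this measure 4 of the 10 members were higher in YAPKO and 0 lower, against 16.2% of 13120 genes in either direction, 6.59% higher and 9.63% lower. Sele reached the minimum of 20 UMIs only through YAPKO, with 60 UMIs against 2 in WT, so this count is a description. The median log2 ratio of the members was 0.36, and that of all genes 0.04. The bars of EC levels by library and the plot of EC ratios show these values.

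Icam1 in ECs stood at 57.5 CPM in WT (52.9 to 62.4), 91.9 in YAPKO (86.1 to 97.9), 41.8 in TAZKO (37 to 46.9) and 59.5 in DKO (54.1 to 65.3). YAPKO was the highest library and TAZKO the lowest, and the intervals of WT and DKO overlapped. Its log2 ratio to WT in YAPKO was 0.67 (0.52 to 0.83), and it was 0.51 when ECs were set per cell by markers, which is under 1.5-fold. Vcam1 stood at 89.6 CPM in WT (83.8 to 95.6), 177.1 in YAPKO (169.1 to 185.4), 73.9 in TAZKO (67.6 to 80.7) and 115.8 in DKO (108.3 to 123.8). All 4 intervals were apart, in the order YAPKO, DKO, WT and TAZKO. The log2 ratio in YAPKO was 0.98 (0.87 to 1.10). Icam2, which ECs carry without stimulation, was at 229.2 CPM in WT (219.9 to 238.8), 245.8 in YAPKO (236.3 to 255.6), 156.7 in TAZKO (147.4 to 166.5) and 253.2 in DKO (242.0 to 264.8), with TAZKO below the rest.

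Selp, whose protein ECs store in Weibel-Palade bodies, stood at 4 CPM in WT (2.86 to 5.45), 28.9 in YAPKO (25.7 to 32.4), 5.18 in TAZKO (3.61 to 7.21) and 20.7 in DKO (17.6 to 24.2). The intervals of WT and TAZKO overlapped, and those of YAPKO and DKO were above both. The log2 ratio in YAPKO was 2.85 (2.37 to 3.37), from 297 UMIs against 40. Sele was counted 2 times in WT ECs, 60 times in YAPKO, 3 times in TAZKO and 26 times in DKO. In CPM these are 0.2 (0.0242 to 0.723), 5.85 (4.46 to 7.52), 0.444 (0.0917 to 1.3) and 3.45 (2.26 to 5.06), again with YAPKO and DKO above WT and TAZKO. The log2 ratio in YAPKO was 4.87 with a wide interval of 2.95 to 7.95. The 60 UMIs came from 21 cells, and 15 of them from 1 cell.

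The 5 junction genes had a median log2 ratio of 0.06 in YAPKO. Jam2 was nearest to the threshold on the higher side, at 425.3 CPM in WT (412.6 to 438.3) and 612.2 in YAPKO (597.1 to 627.5), a log2 ratio of 0.53 (0.47 to 0.58). Cldn5 lay lowest, at 630.9 CPM in WT (615.4 to 646.7) and 463.4 in YAPKO (450.3 to 476.8), a log2 ratio of -0.45 (-0.50 to -0.39). Both ratios were outside counting error, and neither passed 1.5-fold. Pecam1 gave 0.20 (0.15 to 0.25). The ratios of Cdh5, 0.06 (0.01 to 0.11), and Esam, 0.04 (-0.01 to 0.10), changed sign under other settings (-0.02 to 0.15 and -0.04 to 0.14).

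HC RNA in ECs also differed between the libraries. All 12 HC markers were detected in the ECs of each library, and their sum was 5813 CPM in WT, 1291 in YAPKO, 5168 in TAZKO and 1526 in DKO, with Alb the most abundant (1339 CPM in WT). The immediate early genes, which respond within minutes to stress and cell isolation, had a lower sum in ECs of all 3 knock-out libraries than in WT, although some of them were higher. Their 18 genes summed to 2941 CPM in WT, 1742 in YAPKO, 1989 in TAZKO and 1891 in DKO. With mitochondrial genes and 100 HC genes left out of the total, the YAPKO log2 ratio was 0.59 for Icam1, just past 1.5-fold, 0.90 for Vcam1, 4.79 for Sele and 2.77 for Selp. The part of the immediate early response in these ratios was not tested. Median EC depth was 5176 UMIs in WT, 7537.5 in YAPKO, 3859 in TAZKO and 5639 in DKO.

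**Figure D4:**
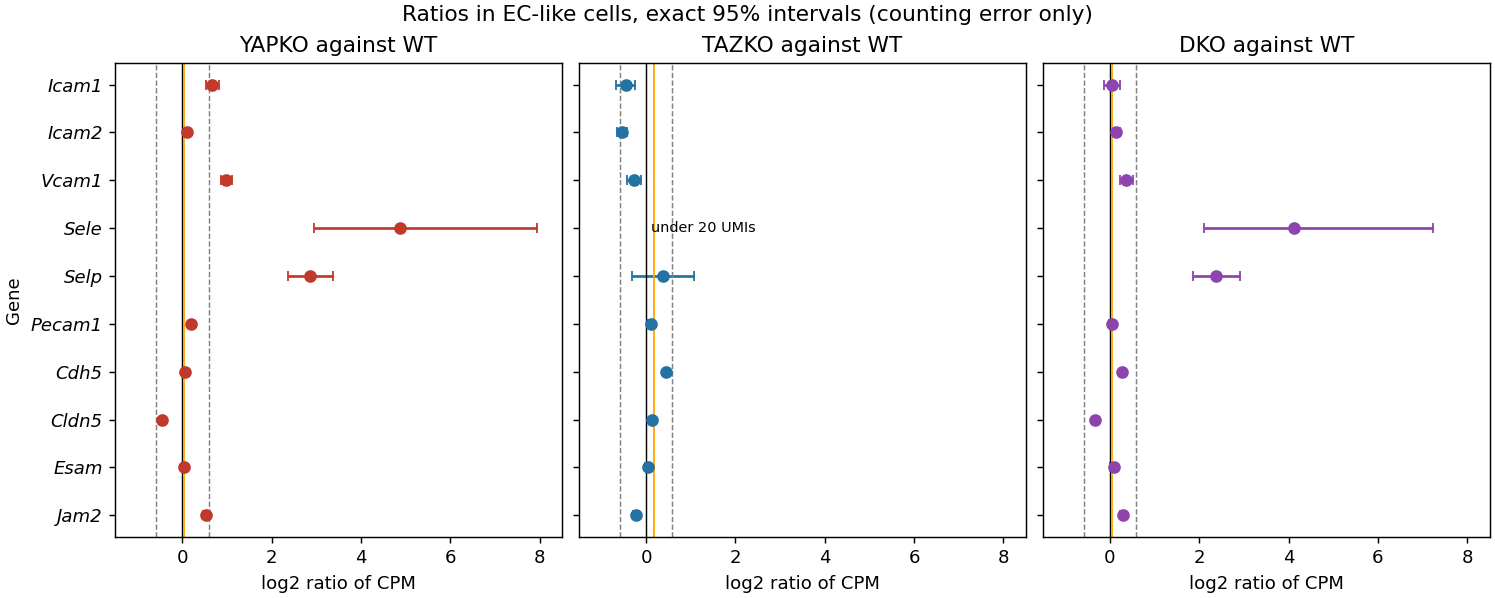
log2 ratio of CPM to WT in ECs for the 10 genes in YAPKO, TAZKO and DKO, with 95% conditional binomial intervals. Dashed lines mark 1.5-fold and the orange line the median of all genes, and Sele in TAZKO has too few UMIs for a ratio.

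The second comparison sets TAZKO ECs against WT. No member passed 1.5-fold as scaled to CPM, and the lowest ratios were those of Icam2 and Icam1. Of the 9 members with enough UMIs, 0 were higher and 0 lower, against 27.1% of 12884 genes in either direction, 17.3% higher and 9.8% lower. The median of all genes was shifted upward by 0.17 in this library, so the ratios are also given relative to it. With that median at 0, 10.6% of genes were higher and 14.8% lower.

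Relative to the shift, Icam2 fell by 0.72 and Icam1 fell by 0.64 on the log2 scale, both past 1.5-fold. Without it, the log2 ratios were -0.55 (-0.65 to -0.44) for Icam2 and -0.46 (-0.67 to -0.25) for Icam1. Vcam1 gave -0.45 relative to the shift and -0.28 (-0.44 to -0.12) without it. Selp, with 35 UMIs against 40, gave 0.20 relative to the shift and 0.37 (-0.32 to 1.06) without it, a difference not detectable at this depth. Sele, with 3 UMIs against 2, gave no ratio. Among the junction genes, Cdh5 was highest in TAZKO, at 979.2 CPM (955.8 to 1003) against 717.4 (700.8 to 734.2) in WT, and its log2 ratio was 0.28 relative to the shift. The other junction genes lay between -0.40 for Jam2 and -0.04 for Cldn5 on that scale. Pecam1 (-0.06 to 0.15), Cldn5 (-0.04 to 0.14) and Esam (-0.13 to 0.08) changed sign between settings, so no direction is given for them in TAZKO.

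The third comparison sets DKO ECs, from a mouse with both genes deleted in its epithelium, against WT. Sele and Selp were higher, and Icam1 was at the WT level within counting error. This made 2 of the 10 members higher and 0 lower, against 19.8% of 12902 genes in either direction, 8.71% higher and 11.1% lower. The share past 1.5-fold in either direction is thus close to that of all genes. Sele reached the minimum of 20 UMIs only through DKO, with 26 UMIs against 2 in WT, so this count is a description. The median was 0.21 for the members and 0.05 for all genes.

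In DKO, the log2 ratio of Selp was 2.37 (1.86 to 2.91), from 156 UMIs against 40. Sele gave 4.11 (2.11 to 7.23), from 26 UMIs against 2, of which 10 were in 1 cell, and it was 2.83 with ECs set per cell by markers. Vcam1 gave 0.37 (0.23 to 0.51), above WT beyond counting error and under 1.5-fold. The ratio of Icam1, 0.05 (-0.13 to 0.23), changed sign between settings (-0.04 to 0.07), as did that of Icam2 (-0.07 to 0.15). Jam2 was at 522.1 CPM in DKO (505.9 to 538.7), a log2 ratio of 0.30 (0.23 to 0.36), and Cldn5 at 501.9 (486.0 to 518.2), a ratio of -0.33 (-0.39 to -0.27). Cdh5 gave 0.28 (0.23 to 0.33). Pecam1 (-0.10 to 0.09) and Esam (-0.13 to 0.16) had no direction that held in all settings. The 3 comparisons use the same WT library, so they are not independent of each other.

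Shares of ECs with at least 1 UMI depend on depth and were therefore also computed after thinning each cell to 1000 UMIs, which left out 14 shallower ECs in WT, 6 in YAPKO, 45 in TAZKO and 12 in DKO. Vcam1 was counted in 25.1% of ECs in WT, 49.9% in YAPKO, 19.1% in TAZKO and 37.1% in DKO, and after thinning in 8.29%, 14.1%, 5.59% and 11.1%. Icam1 was counted in 20.8%, 34%, 12.8% and 23.7%, and after thinning in 4.97%, 7.15%, 4.74% and 4.92%. Thinning thus kept YAPKO as the highest library for both genes and brought the Icam1 shares of the other 3 together. Selp was counted in 1.17% of WT ECs, 9.85% in YAPKO, 1.3% in TAZKO and 7.75% in DKO, and after thinning in 0.512%, 2.05%, 0.486% and 1.53%. Sele was found in 1.59% of YAPKO ECs and 0.719% of DKO ECs, and its thinned shares of at most 0.381% rest on too few cells to read. In HCs, taken as a type with little of these genes, the unthinned shares over all libraries were 3.51% for Icam1, 2.25% for Vcam1 and 0.117% for Selp, and 0.409%, 0.301% and 0 (at most 0.0397%) after thinning. The median depth was 3032.5 UMIs in HCs and 5254.5 in ECs, and 113 HCs were too shallow to thin. The pooled thinned shares in ECs were 5.36% for Icam1, 9.38% for Vcam1 and 1.04% for Selp, all above HCs. For Cdh5, the thinned share was 46.4% of ECs in WT, 52.9% in YAPKO, 59.3% in TAZKO and 57.7% in DKO, and for Cldn5 42.2%, 35.4%, 47.3% and 37.2%.

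ECs differ along the liver lobule, and subclusters of ECs were used to see where the adhesion genes lay. Subcluster 0 (1910 cells) was pericentral sinusoidal-like, with Rspo3, Wnt9b and Wnt2 among its leading genes, and with immunoglobulin genes such as Igkc at their head. Subcluster 1 (1597 cells) was periportal sinusoidal-like, with Msr1, Ntn4 and Efnb2, and subcluster 5 (154 cells) large vessel-like, with Vwf and Edn1. The others had no name. Subcluster 2 (971 cells) was led by interferon-induced genes such as Ifit1 and Cxcl10, and subcluster 6 (111 cells) by Ccl2, Cxcl2, Olr1 and Cxcl1. Subclusters 3, 4 and 7 were led by genes of HCs or of immune cells. Sele was itself among the leading genes of subcluster 6. It did not enter the clustering, and the leading genes were ranked after the cells had been grouped, so its height there is a description.

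**Figure D5:**
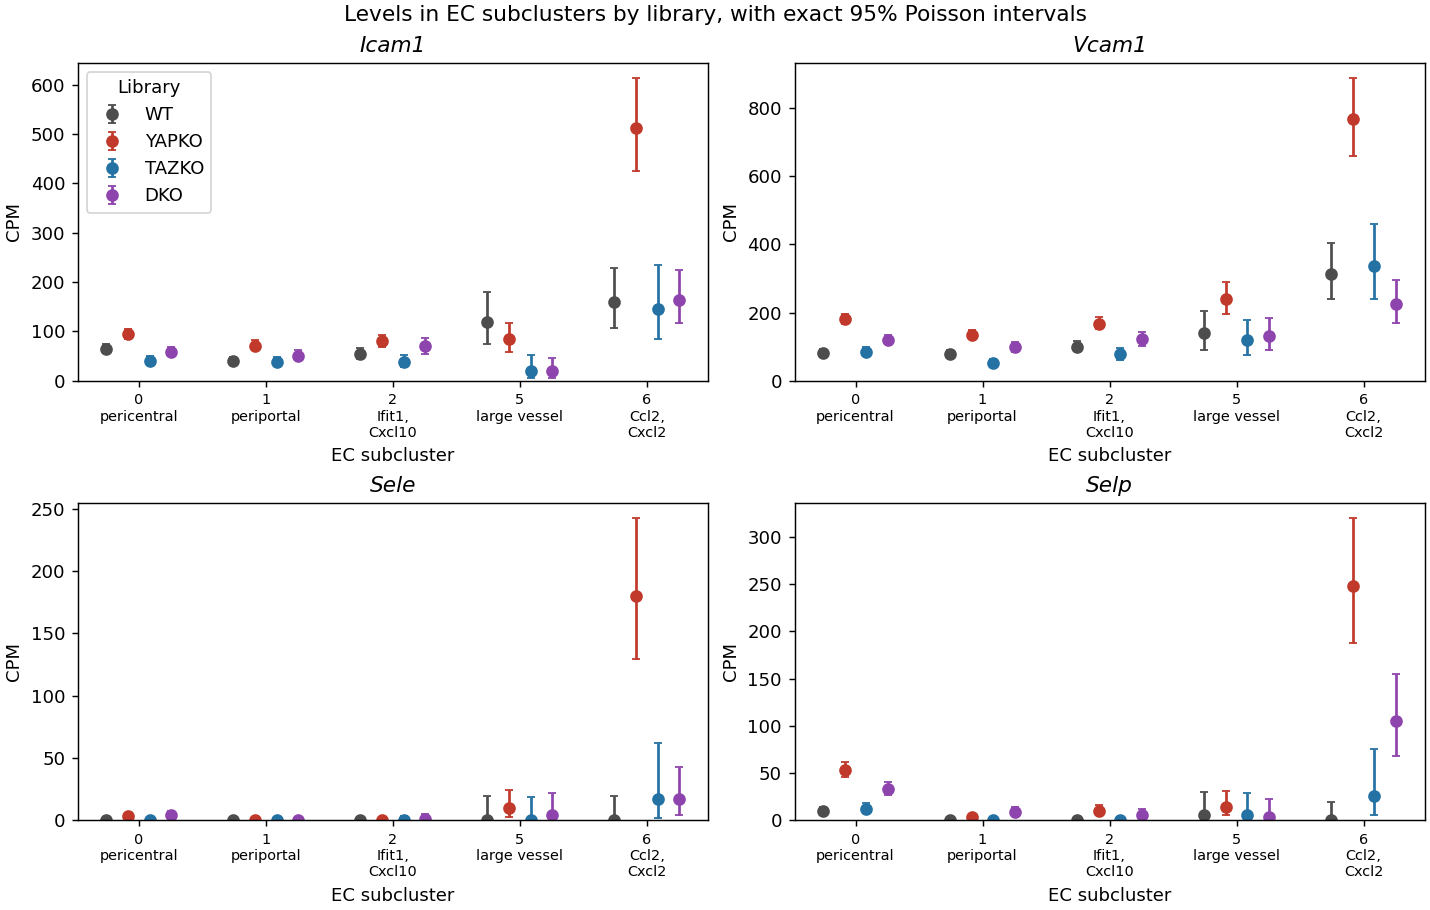
CPM of Icam1, Vcam1, Sele and Selp in EC subclusters 0, 1, 2, 5 and 6, with 1 point for each library and 95% Poisson intervals. In YAPKO, Icam1 and Vcam1 are above WT in subclusters 0 and 1, and all 4 genes are highest in the 24 YAPKO cells of subcluster 6.

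Over the pooled libraries, Selp was at 29.4 CPM in the pericentral and 3.05 in the periportal subcluster, and Sele at 2.24 and 0, where 3 UMIs would be 0.315 CPM. Jam2 ran the other way, at 452.7 and 585.5 CPM, and reached 1335 CPM in large vessel-like ECs. Icam2 was at 275.1 CPM in the pericentral and 171.8 in the periportal subcluster. Cdh5, at 860.3 and 799.6 CPM, and Cldn5, at 606.6 and 530.0, differed less. Subcluster 6 had the highest Icam1 level (265.2 CPM), Vcam1 level (427.5), Selp level (110.7) and Sele level (61.8) of these 5 subclusters. Its Jam2 level, 287.1 CPM, was the lowest of the 5.

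The difference between YAPKO and WT was found in both sinusoidal subclusters for Vcam1, with log2 ratios of 1.15 (0.94 to 1.36) in the pericentral and 0.79 (0.54 to 1.04) in the periportal cells. Icam1 gave 0.55 (0.30 to 0.81), under 1.5-fold, in the pericentral and 0.80 (0.46 to 1.15) in the periportal cells. Both genes were thus above WT in either part of the lobule, as the plot by EC subcluster shows. Pericentral Selp stood at 10.3 CPM in WT, 53.8 in YAPKO, 12.4 in TAZKO and 33 in DKO. Its log2 ratio there was 2.39 (1.85 to 2.97) in YAPKO and 1.68 (1.11 to 2.30) in DKO. In periportal cells Selp was at 0 in WT and TAZKO, where 3 UMIs would be 1.08 and 1.55 CPM, at 3.66 in YAPKO (1.75 to 6.72) and at 9.13 in DKO (5.5 to 14.3). The Cldn5 ratio in YAPKO was -0.53 (-0.62 to -0.44) in pericentral and -0.43 (-0.53 to -0.32) in periportal cells, and that of Jam2 was 0.49 (0.39 to 0.59) and 0.52 (0.42 to 0.62). Neither gene passed 1.5-fold in these cells. The lower Icam2 level of TAZKO was seen in both, with ratios of -0.60 (-0.78 to -0.43) and -0.54 (-0.76 to -0.32). It was not particular to ECs, as the values of other types below show. For the other ligands in TAZKO, the intervals of both subclusters overlapped, and a difference between the subclusters was not tested. Icam1 gave -0.69 (-1.07 to -0.32) in pericentral and -0.07 (-0.52 to 0.36) in periportal cells, and Vcam1 0.06 (-0.22 to 0.34) and -0.56 (-0.91 to -0.21). These ratios are on the CPM scale. In large vessel-like ECs, 8 of the 10 members had enough UMIs for ratios, and Sele and Selp did not. Icam1 there was lower in TAZKO (4 UMIs, log2 ratio -2.52, -4.52 to -0.96) and DKO (5 UMIs, -2.56, -4.32 to -1.13) than in WT (22 UMIs). In YAPKO it gave -0.50 (-1.31 to 0.34), so the higher Icam1 level of YAPKO ECs was not seen in these cells. The 35 WT cells of this subcluster stood apart in immediate early RNA, with a sum of 8047 CPM led by Hspa1b (1160 CPM), against 2429 in YAPKO, 3174 in TAZKO and 3283 in DKO, and its part in the Icam1 ratios was not tested. Vcam1 was higher in YAPKO there, with 100 UMIs against 26 and a log2 ratio of 0.78 (0.14 to 1.46). Cldn5 in these cells gave 0.40 (0.00 to 0.82) in YAPKO, not below WT as in the sinusoidal cells, and Jam2 gave 0.01 (-0.21 to 0.22) in YAPKO and -0.47 (-0.74 to -0.19) in TAZKO.

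Subcluster 6 was small, with 31 cells in WT, 24 in YAPKO, 25 in TAZKO and 31 in DKO. Icam1 stood there at 159.6 CPM in WT (107.7 to 227.9), 512.8 in YAPKO (425.2 to 613.2), 146.3 in TAZKO (85.3 to 234.3) and 163.5 in DKO (116.3 to 223.5). Vcam1 stood at 314.0 CPM in WT (239.0 to 405.0), 769.2 in YAPKO (660.9 to 890.1), 335.7 in TAZKO (238.7 to 459.0) and 226.4 in DKO (170.1 to 295.4). For both genes YAPKO stood alone above the other libraries. The cells of subcluster 6 were also unlike in endothelial genes. The 10 sinusoidal receptors summed there to 16581 CPM in WT, 12252 in YAPKO, 15745 in TAZKO and 7580 in DKO, and Ptprb, an endothelial phosphatase, was at 3384, 1859, 3383 and 968.4 CPM. Both were lowest in DKO and next lowest in YAPKO, and their part in the Icam1 and Vcam1 levels was not tested. Selp was at 0 in WT, where 3 UMIs would be 16 CPM, and at 247.9 CPM in YAPKO (188.2 to 320.4), 25.8 in TAZKO (5.33 to 75.5) and 104.8 in DKO (67.8 to 154.7). These few cells held 42 of the 60 Sele UMIs of YAPKO ECs (70%), in 7 cells, and 4 of the 26 in DKO (15.4%). They held 19.5% of the Selp UMIs of YAPKO, 12.7% of its Icam1 UMIs and 9.9% of its Vcam1 UMIs. Without subcluster 6, the log2 ratio in YAPKO was 0.56 for Icam1, which is under 1.5-fold, 0.94 for Vcam1, 3.14 for Sele and 2.55 for Selp. In DKO it was 3.89 for Sele and 2.14 for Selp.

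In KCs, Vcam1, which macrophages of liver and spleen are known to carry, also differed between libraries. It stood at 455.2 CPM in WT, 622.3 in YAPKO, 244.1 in TAZKO and 643.5 in DKO. TAZKO was the lowest and fell by 0.90 on the log2 scale (-0.98 to -0.82), while YAPKO gave 0.45 (0.40 to 0.51) and DKO 0.50 (0.44 to 0.56), both under 1.5-fold. In KCs without EC marker UMIs, the levels were 413.7, 685.3, 234.7 and 738.0 CPM and the log2 ratios 0.73, -0.82 and 0.84, all past 1.5-fold. The YAPKO ratio in KCs was -0.23 when the limits on cells were read as UMIs, so no direction is given for it. Of the 3 KC clusters, cluster 27, with the B cell genes Fcer2a and Ighd at its head, held only 21 cells and gave no level by library. In cluster 2 (2790 cells), Vcam1 was at 512.4 CPM in WT, 772.7 in YAPKO, 265.4 in TAZKO and 812.9 in DKO. In cluster 9 (1053 cells), led by haemoglobin genes, it was at 353.1, 380.7, 190.8 and 428.6. TAZKO was lowest in both of these. Median KC depth was 11866 UMIs in WT, 17613 in YAPKO, 5356.5 in TAZKO and 11308.5 in DKO, and after thinning to 1000 UMIs the KCs without EC marker UMIs with Vcam1 were 25.7%, 37.6%, 19.1% and 41.2%. Icam1 in KCs was at 59.5 CPM in WT, 67.3 in YAPKO, 69.8 in TAZKO and 56.5 in DKO, and no ratio passed 1.5-fold. These ratios depended on the cells and the scale. In TAZKO the log2 ratio was 0.23 (0.06 to 0.41), 1.13 in KCs without EC marker UMIs, 0.65 with the limits read as UMIs and -0.01 with the median of all genes at 0. In DKO it was -0.07 (-0.24 to 0.09), and 0.62 with the limits read as UMIs. Cluster 2 had Icam1 at 46.8 CPM in WT and 73.2 in TAZKO, and cluster 9 at 81.4 and 61.6, the other way round. No direction is therefore given for Icam1 in KCs. Cdh5 in KCs was at 507.2 CPM in WT, 513.6 in YAPKO, 830.5 in TAZKO and 465.0 in DKO, with a log2 ratio of 0.71 (0.66 to 0.77) in TAZKO. The median of all genes was shifted by 0.24 in TAZKO KCs, and relative to it Cdh5 gave 0.47, under 1.5-fold, and Vcam1 -1.14. In KCs without EC marker UMIs Cdh5 was at 472.4, 419.4, 837.3 and 385.8 CPM, so TAZKO was highest there as well. Selp in KCs was at 8.19 CPM in WT (72 UMIs), 5.5 in YAPKO (74), 0.379 in TAZKO (3) and 6.44 in DKO (75). Its log2 ratio was -4.43 (-6.74 to -2.83) in TAZKO, -0.57 (-1.06 to -0.08) in YAPKO and -0.35 (-0.83 to 0.14) in DKO, so TAZKO was the lowest and the higher Selp level of YAPKO and DKO ECs was not seen in KCs. These UMIs came from 13 cells in WT, 25 in YAPKO, 2 in TAZKO and 45 in DKO, with up to 14 in 1 cell. The YAPKO ratio ran from -2.34 to -0.34 over the other settings and that of DKO from -1.34 to -0.19. Outside ECs and KCs, Selp was higher in YAPKO MACs (46 UMIs against 1, log2 ratio 3.28, 0.73 to 8.61) and pDCs (33 against 4, 1.96, 0.47 to 3.92). It was counted 23 times in YAPKO T cells and 27 times in YAPKO conventional dendritic cells, against 0 in WT. HSCs of DKO gave 2.70 (1.25 to 4.47), and neutrophils of YAPKO 0.56 (-0.53 to 1.77). The part of EC RNA in these values was not tested. Jam2 was higher in KCs of YAPKO (log2 ratio 1.03, 0.86 to 1.21) and DKO (1.20, 1.03 to 1.38), and Esam in DKO (0.62, 0.47 to 0.78), while KCs without EC marker UMIs had 1.34 and 1.49 CPM of these genes, as given above. EC marker RNA in KCs was 12.4% of the EC level in WT, 14.6% in YAPKO, 12.1% in TAZKO and 18.1% in DKO. Icam2 was lower in TAZKO KCs, at 31.9 CPM against 52.3 in WT (-0.72, -0.94 to -0.49). It was also lower in TAZKO HSCs (-1.13, -1.42 to -0.85), T cells (-0.82, -1.18 to -0.45) and pDCs (-0.84, -1.38 to -0.29). In B cells, NK cells, neutrophils, MACs, BECs and conventional dendritic cells of TAZKO, its ratio was within counting error. The part of EC RNA in these Icam2 ratios was not tested.

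MACs carried little Vcam1 in WT (37 CPM) and TAZKO (59), and more in YAPKO (196.2) and DKO (235.2), with log2 ratios of 2.41 (1.96 to 2.89) in YAPKO and 2.67 (2.21 to 3.16) in DKO. The MACs numbered 118 in WT, 434 in YAPKO, 102 in TAZKO and 424 in DKO. In MACs without EC marker UMIs the Vcam1 levels were 17.9, 101.1, 49 and 177.9 CPM, in the same order. Over the other settings the ratio ran from 1.35 to 2.82 in YAPKO and from 1.41 to 3.83 in DKO. KCs had more Vcam1 than MACs in every library, and the part of KC RNA in the MAC levels was not tested. Icam1 in MACs was at 73.1 CPM in WT, 44.6 in YAPKO, 62 in TAZKO and 57.4 in DKO, with log2 ratios of -0.71 (-1.08 to -0.33), past 1.5-fold lower, in YAPKO, -0.24 (-0.82 to 0.32) in TAZKO and -0.35 (-0.74 to 0.05) in DKO. The YAPKO ratio was 0.23 in MACs without EC marker UMIs and -0.25 at resolution 0.8, and that of DKO was 1.07 with the limits read as UMIs, so no direction is given for Icam1 in MACs. Cdh5 was lower in MACs of YAPKO (-0.94, -1.34 to -0.53) and DKO (-0.79, -1.23 to -0.35). BECs, with 54 cells in WT and 32 in YAPKO, had Vcam1 at 39.3 CPM (24 UMIs) and 198.4 CPM (89 UMIs), a log2 ratio of 2.34 (1.67 to 3.05). EC marker RNA in BECs was 32.7% of the EC level in WT and 7.32% in YAPKO. In the 9 WT and 10 YAPKO BECs without EC marker UMIs, Vcam1 was at 13.2 CPM (1 UMI, 0.333 to 73.3) and 211.2 CPM (25 UMIs, 136.7 to 311.7), so YAPKO was higher there as well. Icam1 in HSCs, which carry EC RNA, was at 59.4 CPM in WT, 87.3 in YAPKO, 50 in TAZKO and 61.2 in DKO. The DKO ratio was within counting error, at 0.04 (-0.29 to 0.37), but was 1.40 with the limits read as UMIs. In HCs, Icam1 was low, at 3.17 CPM in WT, and rose to 5.94 in YAPKO, 4.83 in TAZKO and 5.12 in DKO. The log2 ratios were 0.90 (0.43 to 1.39), 0.60 (0.08 to 1.13) and 0.69 (0.25 to 1.14), all past 1.5-fold. With the median of all genes at 0 they were 0.47, 0.04 and 0.21, all under it. Vcam1 in HCs, at 1.59 CPM in WT, gave 1.29 (0.65 to 1.96), 0.81 (0.08 to 1.55) and 1.99 (1.43 to 2.59) on the CPM scale. These Vcam1 ratios still include the upward shift of all genes that lowered the Icam1 ratios once it was taken out. In neutrophils of YAPKO, TAZKO and DKO, Icam1 gave 1.51, 0.27 and 0.39, and Vcam1 1.42, 0.75 and 1.19. EC marker RNA in neutrophils was 22.3% of the EC level in WT and 40.4%, 20.9% and 40.5% in these libraries, and its part was not tested.

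Related genes were counted in ECs from lists of the same pathways. A list of 15 genes held leukocyte integrins, selectin ligands and related genes, not all of which bind a member. Of these, 9 had enough UMIs in YAPKO, and 5 were higher and 0 lower, beside 6.59% and 9.63% of all genes. In TAZKO 1 of 6 was higher, beside 17.3% of all genes, and in DKO 3 of 8, beside 8.71%, with 0 lower in both. The 5 in YAPKO, named after their values were seen, were Itgal, Itgb2, Itgb7, Selplg and Cd44. They are leukocyte genes with 17 to 37 UMIs in YAPKO ECs and 6 to 17 in WT ECs, and Selplg was under 1.5-fold with the median of all genes at 0. Itgb2, with 18 UMIs against 6 in WT, and Cd44, with 20 against 8, reached the minimum of 20 UMIs mainly through YAPKO. A gene this scarce could hardly have reached it if lower, so the count is a description. Leukocyte marker RNA in ECs differed between the libraries as well. The 7 T cell markers summed to 1 CPM in WT, 3.12 in YAPKO, 1.33 in TAZKO and 1.46 in DKO, with Cd3d the most abundant and Cd8a at 0 in YAPKO. The 6 B cell markers summed to 1, 1.95, 1.63 and 1.33 CPM, with Cd79b the most abundant and Pax5 at 0 in YAPKO. The 7 neutrophil markers ran the other way, at 38 CPM in WT, 17.5 in YAPKO, 0.889 in TAZKO and 3.19 in DKO. The part of leukocyte RNA in these counts was not tested. The 4 named by size among those with at least 100 UMIs did not pass 1.5-fold in any library. Among them Itgb1, the beta 1 integrin, was at 731.0 CPM in WT, 780.3 in YAPKO, 551.8 in TAZKO and 695.6 in DKO. For Cd47, the partner of SIRPA, the log2 ratios were -0.18, -0.05 and -0.11, for Glg1, a ligand of E-selectin, -0.06, 0.03 and -0.15, and for Sirpa itself 0.01, 0.16 and -0.02.

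Of 30 other endothelial junction and adhesion genes, 3 of 22 were higher and 1 lower in YAPKO, 10 of 23 higher and 0 lower in TAZKO, and 6 of 23 higher and 1 lower in DKO, with medians of 0.13, 0.50 and 0.17. The shares of all genes were 6.59% higher and 9.63% lower in YAPKO, 17.3% and 9.8% in TAZKO, and 8.71% and 11.1% in DKO. The TAZKO counts and medians of this and the other lists are on the CPM scale, with the upward shift of all genes included, unless stated. With the median of all genes at 0, 6 of 23 of these junction and adhesion genes were higher in TAZKO and 0 lower. The median of the list was then 0.33, beside shares of 10.6% higher and 14.8% lower among all genes. Among these 6 were the scarce genes Cdh2, Cldn1 and Cldn3, with 72, 40 and 48 UMIs in TAZKO ECs and 28, 10 and 30 in WT ECs. Cldn1 reached the minimum of UMIs only through TAZKO, and Marveld2, counted as higher in DKO, only through DKO, with 16 UMIs against 10. Genes this scarce in WT could hardly have reached it if lower, so the TAZKO and DKO counts are a description. The junction members themselves had medians of 0.06, 0.11 and 0.08. Plvap, which forms the diaphragms of endothelial pores and is low in mature LSECs, rose in all 3, from 88.8 CPM in WT to 163.3 in YAPKO, 197.8 in TAZKO and 244.8 in DKO. Jup (plakoglobin), which ties cadherins such as VE-cadherin to the cytoskeleton, rose from 18.8 CPM to 33, 36.3 and 54.1. Mcam (CD146), an adhesion molecule of endothelial borders, rose from 62.3 CPM to 101.7, 133.3 and 130.9. Cldn3, a claudin of epithelial tight junctions, was at 3 CPM in WT, fell to 1.07 in YAPKO (log2 ratio -1.49, -2.63 to -0.45), rose to 7.11 in TAZKO (1.24, 0.56 to 1.95) and was at 1.73 in DKO (-0.80, -1.86 to 0.18). HC marker RNA in ECs, given above, was likewise lower in YAPKO and DKO than in WT and TAZKO, and its part in the Cldn3 values was not tested.

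Of the 20 NF-kB response genes, 18 had enough UMIs in YAPKO, with 7 higher and 1 lower. In TAZKO 4 of 17 were higher and 4 lower, and in DKO 4 of 17 higher and 2 lower, with medians of 0.31, -0.04 and 0.08 in the 3 libraries. Of all genes, 6.59% were higher and 9.63% lower in YAPKO, 17.3% and 9.8% in TAZKO, and 8.71% and 11.1% in DKO. With the median of all genes at 0, the TAZKO counts were 3 higher and 7 lower, beside 10.6% and 14.8% of all genes, and the median of the list was -0.22. The 20 genes summed to 1079 CPM in WT, 1380 in YAPKO, 1068 in TAZKO and 1209 in DKO. The chemokine gene Cxcl1 rose from 4.4 CPM in WT to 18.3 in YAPKO, with 3.11 in TAZKO and 5.85 in DKO. Cxcl2, a second neutrophil chemokine, rose from 0.4 to 9.64 CPM in YAPKO (log2 ratio 4.59, 3.19 to 6.49). It reached the minimum of 20 UMIs only through YAPKO, with 99 UMIs against 4 in WT. Ccl2, a monocyte chemokine, moved both ways, from 5 CPM in WT to 26.8 in YAPKO (log2 ratio 2.42, 1.98 to 2.89), 0.741 in TAZKO (-2.76, -4.44 to -1.44) and 10.2 in DKO (1.03, 0.50 to 1.58). Traf1, an adaptor of TNF receptors, was at 2.5 CPM in WT, 2.83 in YAPKO, 5.63 in TAZKO and 4.12 in DKO. In subcluster 6 the sum was 1490 CPM in WT, 3970 in YAPKO, 1773 in TAZKO and 1715 in DKO. Ccl2, Cxcl2 and Cxcl1 belong to this list and lead that subcluster, and Ccl2 was its most abundant list gene in YAPKO (905.9 CPM). The list genes did not enter the clustering. The subcluster was singled out after its values were seen, so the sum there is a description.

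Of the 18 immediate early genes, 2 were higher and 8 lower in YAPKO, 1 higher and 10 lower in TAZKO, and 2 higher and 7 lower in DKO, with medians of -0.40, -0.91 and -0.34. Among all genes, the shares lower were 9.63%, 9.8% and 11.1% in these libraries, and the shares higher 6.59%, 17.3% and 8.71%. The higher genes were Atf3 and Ier3 in YAPKO, Klf4 in TAZKO, and Ier3 and Klf4 in DKO, named after their values were seen. With the median of all genes at 0, Klf4 was under 1.5-fold in TAZKO, which left 0 higher and 10 lower, beside 10.6% and 14.8% of all genes. Egr1 fell from 221.5 CPM in WT to 27.3 in YAPKO, 16.6 in TAZKO and 24.6 in DKO, and Fos from 268.8 to 26.3, 21.9 and 46.4. The heat shock genes Hspa1a, 211.2 CPM in WT, and Hspa1b, 375.3 CPM in WT, fell to 5.65 and 14.9 CPM in YAPKO. In TAZKO they were at 67.4 and 144.1 CPM, and in DKO at 35.2 and 50.9. Of 10 sinusoidal endothelial receptors, 8 had enough UMIs, and 0 were past 1.5-fold in YAPKO, while 1 was lower in TAZKO and 1 in DKO. With 9.8% of all genes lower in TAZKO and 11.1% in DKO, 1 of 8 is close to the share of all genes. These were Clec4g, a lectin of LSECs, which fell from 4181 to 2601 CPM in TAZKO, and Lyve1, a hyaluronan receptor, which fell from 770.6 to 399.8 CPM in DKO. The scavenger receptors Stab1 (1309 CPM in WT) and Mrc1 (2215 CPM in WT) did not pass 1.5-fold in any library, with log2 ratios between -0.52 and -0.13.

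Genes with the pattern most like that of each member were taken from 14706 genes over 47 profiles of cell type by library. Pearson's r of log2(CPM + 1) is a description here, since profiles of 1 library share its depth and free RNA. Junction genes had very close neighbours, such as Aqp1, Ehd3 and Amotl1 for Cldn5 (r = 0.99 each), Adam23, Bmp2 and Ptprb for Esam (0.99 each) and Cavin2, Tie1 and Aqp1 for Jam2 (0.98 each). For Cdh5 these were Mrc1 (0.97), Scarf1 (0.97) and Itga9 (0.95), for Pecam1 Ttc28 (0.96), Chst15 (0.95) and Mylip (0.95), and for Icam2 Cd38 (0.96), Mylip (0.94) and Smap2 (0.94). Neighbours of Icam1 were Tln1 (0.93), which encodes the integrin adaptor talin, Rab8b (0.92) and Tpm3 (0.90). Those of Vcam1 were Serpinb6a (0.93), Cenpb (0.91) and Anxa3 (0.91). Selp had no neighbour above 0.68 (Serpina3i, then Gm49839 and Ifi203-ps at 0.67), and Sele had too few UMIs. Among the members, Esam and Jam2 (0.97), Cldn5 and Esam (0.97), Cldn5 and Jam2 (0.96) and Icam2 and Pecam1 (0.95) were the most alike, while Icam1 and Vcam1 gave 0.39.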

How the data were processed

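Single-cell RNA of 4 mouse livers was analysed from the UMI counts per gene and barcode that the authors deposited. Reads had been mapped by the authors with Cell Ranger (6.0.1 in the submitters' processing notes) on mm10, and these counts were not normalized. Members and gene lists were chosen with earlier results of these data known. Positions came from GENCODE release 21 (GRCm38).

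Barcodes with 500 to 6000 genes and at most 10% mitochondrial UMIs were used. Counts were scaled to 10000 UMIs per cell, log-transformed, reduced to 2000 variable genes and 20 principal components, corrected by library, and clustered (Leiden, 20 neighbours, resolution 0.4) with scanpy 1.11.5, leidenalg 0.10.2, igraph 0.11.9 and scikit-learn 1.9.0. ECs were clustered again with 15 components and resolution 0.3. Members, genes of the related lists and mitochondrial genes were left out of the variable genes in both clusterings. In contrast to the study, cell cycle scores were not regressed out. Clusters were named from marker genes. Cluster 16 (455 cells) and cluster 17 (336 cells) stayed unnamed, and rebuilt names may differ from the study's. The study's limits are worded as transcripts, and reading them as UMIs was an alternative. Scrublet called 1 to 3 doublets per library and so had not worked, and doublets were not removed.

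UMIs were summed by cell type and library. Intervals were computed with scipy 1.17.1, numpy 2.4.6 and pandas 2.3.3 (Python 3.11.15), tested on simulated data, and figures drawn with matplotlib 3.10.9. The text names the 10 members, the 4 genes of each list with the largest absolute log2 ratio, averaged over the 3 knock-out libraries among those with at least 100 UMIs in ECs, and the 3 genes most correlated with each member of at least 200 UMIs, over profiles of at least 20 cells. Leading genes of subclusters, the targeted genes and Alb were named beside these, and EC subcluster 6 was singled out after its values were seen. Alternatives were the reading of the limits, 20% mitochondrial UMIs, no correction by library, resolution 0.8, ECs set per cell by at least 3 markers, the top 8% of doublet scores left out, a total without mitochondrial and 100 HC genes, the median of all genes at 0, and a minimum of 100 UMIs.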

Additional observations from a re-analysis of the deposited data

Results flagged for a closer look

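Barcodes outside the limits on genes and mitochondrial UMIs were not used above, and the 10 genes were summed in them. Their summed level was 937.5 CPM (924.8 to 950.4) in 1436 YAPKO barcodes and 963.8 CPM (942.1 to 985.8) in 894 DKO barcodes, both above 225.2 CPM (217.3 to 233.2) in 6502 WT barcodes. In 5780 TAZKO barcodes it was 160.8 CPM (151.2 to 170.8). These sets of barcodes are unlike: those with under 500 genes numbered 6237 in WT, 941 in YAPKO, 5465 in TAZKO and 676 in DKO, and the part of this in the difference was not tested. The unnamed cluster 16, led by genes of dividing cells, had a summed level of 951.8 CPM (913.7 to 991.1) in YAPKO and 872.9 CPM (822.4 to 925.6) in DKO, above 768.1 CPM (729.8 to 808.0) in WT. In TAZKO it was 765.3 CPM (714.6 to 818.7). EC marker RNA in this cluster was 6.15% of the EC level in WT, 13.8% in YAPKO, 10.3% in TAZKO and 12.4% in DKO, and its part in the difference was not tested. In the unnamed cluster 17, which held HC markers but was led by EC genes, Cldn5 among them, the summed level was 2157 CPM (2004 to 2319) in WT, 2135 (1973 to 2307) in YAPKO, 2263 (2153 to 2378) in TAZKO and 1880 (1785 to 1978) in DKO, not above WT in YAPKO or DKO.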

How the results depend on the processing

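No paired analysis was possible because each genotype has 1 library. Of the values past 1.5-fold, 2 changed sign under the alternatives run, namely Icam1 in MACs of YAPKO (0.23 without EC marker UMIs) and Vcam1 in MACs of TAZKO (-0.05 with a mitochondrial limit of 20%). Chosen after seeing the data were 3 alternatives (ECs without subclusters led by genes of other types, ECs without the subcluster with the highest NF-kB sum, and cells of other types without EC marker UMIs), all alternatives of Cdh5 and Selp in KCs and of Icam1 and Vcam1 in MACs, and the gene list counts with the median of all genes at 0. Of the main results, 86 values moved by less than counting error or, for counts of genes, less than 1.5 times, and 13 moved by more. Of the other values, 400 and 102 did so.

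With ECs set per cell by markers, the log2 ratio in YAPKO was 0.51 for Icam1 and 0.60 for Vcam1, and for Vcam1 it was -0.54 in TAZKO and 0.51 in DKO. In TAZKO 2 of 9 members then passed 1.5-fold (Icam2 lower, Selp higher), beside 29% of 15403 genes. With the limits read as UMIs, Vcam1 in YAPKO gave 0.72, and 1 member passed in DKO (Selp), since Sele then had too few UMIs. Of all genes, 19.3% passed in DKO in that setting. With the median of all genes at 0, Vcam1 in TAZKO gave -0.45 and 2 members passed (Icam1, Icam2), beside 25.4% of all genes. In TAZKO 1 member passed (Icam2) with a mitochondrial limit of 20%, without correction by library and at resolution 0.8. The shares of all genes were 27.7%, 27.6% and 27.3% in these settings. In DKO 1 member passed (Selp) with at least 100 UMIs, because Sele had fewer, beside 12% of all genes. The cause of the other shifts was not tested. In YAPKO 3 or 4 members passed in all settings, beside 8.24% to 18.9% of all genes. Icam1 was under 1.5-fold in YAPKO with ECs set by markers and without subcluster 6 (0.56).

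Depth limits Sele most, with 91 UMIs in ECs, and its ratio ran from 3.14 to 4.90 in YAPKO and from 2.83 to 4.07 in DKO over the alternatives. Counting error says nothing of the spread between mice.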
